A study of Capra hircus with 12 samples.

Results

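The miR-30 family was followed through the yearly cashmere cycle in secondary hair follicles (SHFs), the small follicles of goat skin that grow the fine underhair. Its members were taken by name, as every listed miRNA of the miR-30a to miR-30f series, and 11 of the 376 miRNAs in the tables belonged to it. They comprised 5 arms from the 5′ side of the hairpin (5p arms, of miR-30a, b, c, e and f) and 6 from the 3′ side (3p arms, of miR-30a to f). miR-30d-5p was not analysed here, so sums of the 5p arms lack it while sums of the 3p arms include miR-30d-3p.

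Small RNA had been sequenced from SHFs of untreated Liaoning cashmere goats aged 1.5 years, with 1 female and 1 male library in each of 6 months, or 12 libraries in all. February and March are telogen (the resting phase, 4 libraries), May is early anagen (the start of growth, 2 libraries), September is mid-anagen (2 libraries), and November and December are catagen (regression, 4 libraries). Each month drew on 3 goats of either sex, and how these goats were combined into libraries is not given in the sources used here. Within a month, sex and library cannot be told apart, and all p-values measure only the spread between these libraries.

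The libraries held 3135292 to 5788032 counts (median 4469051). Summed over the miR-203 and miR-200 family group of epithelial miRNAs (6 found), the level ran from 56735 to 96687 TPM, the count of a miRNA scaled to a common library total, and over 8 mesenchymal miRNAs from 110441 to 140115 TPM. The 2 erythrocyte miRNAs found summed to 5.41 to 115 TPM and the 4 leukocyte miRNAs to 393 to 664 TPM. The miRNAs of the epithelial and mesenchymal lists were thus both abundant and those of blood were low. In such bulk samples fewer cells of a type and less RNA per cell cannot be told apart. Between May and September, the comparison with most family members called, the summed TPM of 3 of the 6 marker lists did not overlap. With 2 libraries a month such separation often arises by chance. Its share over all miRNAs was not counted, so this number has no background to be read against. The muscle list (miR-1, miR-133a-3p, miR-133b and miR-206) went from 2020 and 2665 in May to 3336 and 3410 in September, the mesenchymal list from 120019 and 122912 to 133302 and 133305, and the epithelial list from 81375 and 88411 down to 56735 and 72600. The endothelial list (miR-126-3p and miR-126-5p) overlapped, at 9177 and 9686 against 9135 and 10220, as did those of leukocytes (416 and 434 against 415 and 588) and erythrocytes (24.6 and 45.9 against 16.6 and 28.3). All list sums were compared in TPM alone, where the median log2 change of all tested miRNAs from May to September was -0.46. They were not compared with the scaling between libraries that the tests below use, which can alter such overlaps.

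By the test used below for the family, a single miRNA in each of 4 lists was called, and each was higher in September. Of all 300 miRNAs tested, 18.3% were called and 9.67% were called higher. They were miR-1 among 3 muscle miRNAs tested (log2 change 1.19), miR-143-3p among 8 mesenchymal (1.17), miR-200a among 6 epithelial (1.43) and miR-223-5p among 4 leukocyte miRNAs (1.38). miR-133a-3p (-0.52) and miR-133b (-0.19) of the muscle list had lower fitted values in September and were not called. The part of other cell types in the family's changes was not tested.

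A miRNA is cut from a hairpin precursor whose arms can both be loaded into Argonaute, although one arm usually accumulates far above the other. The 5p arms of the miR-30 family share a seed, the bases that pair with target mRNAs, and so address overlapping targets, while their 3p arms carry other seeds. In several tissues miR-30 5p arms are known to restrain Snai1 and other drivers of epithelial-mesenchymal transition and fibrosis. Mature miR-30a-5p, miR-30d-5p and miR-30e-5p are near-identical in sequence, as are miR-30a-3p, miR-30d-3p and miR-30e-3p, and how the authors assigned reads that match several members is not given in the sources used here. Levels of such near-identical members are therefore uncertain where reads could be split.

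In order of mean TPM over the 12 libraries, the family ran from miR-30a-5p (13335), miR-30e-5p (2826), miR-30c-5p (1925) and miR-30b-5p (1811) through miR-30e-3p (287), miR-30f-5p (137) and miR-30a-3p (61.7) to miR-30f-3p (17.002), miR-30b-3p (5.92), miR-30c-3p (2.28) and miR-30d-3p (1.84). Of the 10 pairs of neighbours in this order, 7 differed in an exact sign-flip permutation test (two-sided, paired within a library, adjusted p at most 0.0014). The other 3 did not differ beyond their spread. These were miR-30e-5p and miR-30c-5p (adjusted exact p = 0.069), miR-30c-5p and miR-30b-5p (adjusted exact p = 0.146), and miR-30c-3p and miR-30d-3p (adjusted exact p = 0.124), each pair standing in this order in 7 of 12 libraries. miR-30e-3p was the only 3p arm above a 5p arm, exceeding miR-30f-5p in 11 of 12 libraries. miR-30c-3p reached at most 4.35 TPM and miR-30d-3p at most 3.14 TPM, and neither passed the filter of more than 5 CPM (the count over its library total, on the scale of TPM) in at least 2 libraries. Accordingly, 9 members were tested among 300 miRNAs.

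**Figure D1:**
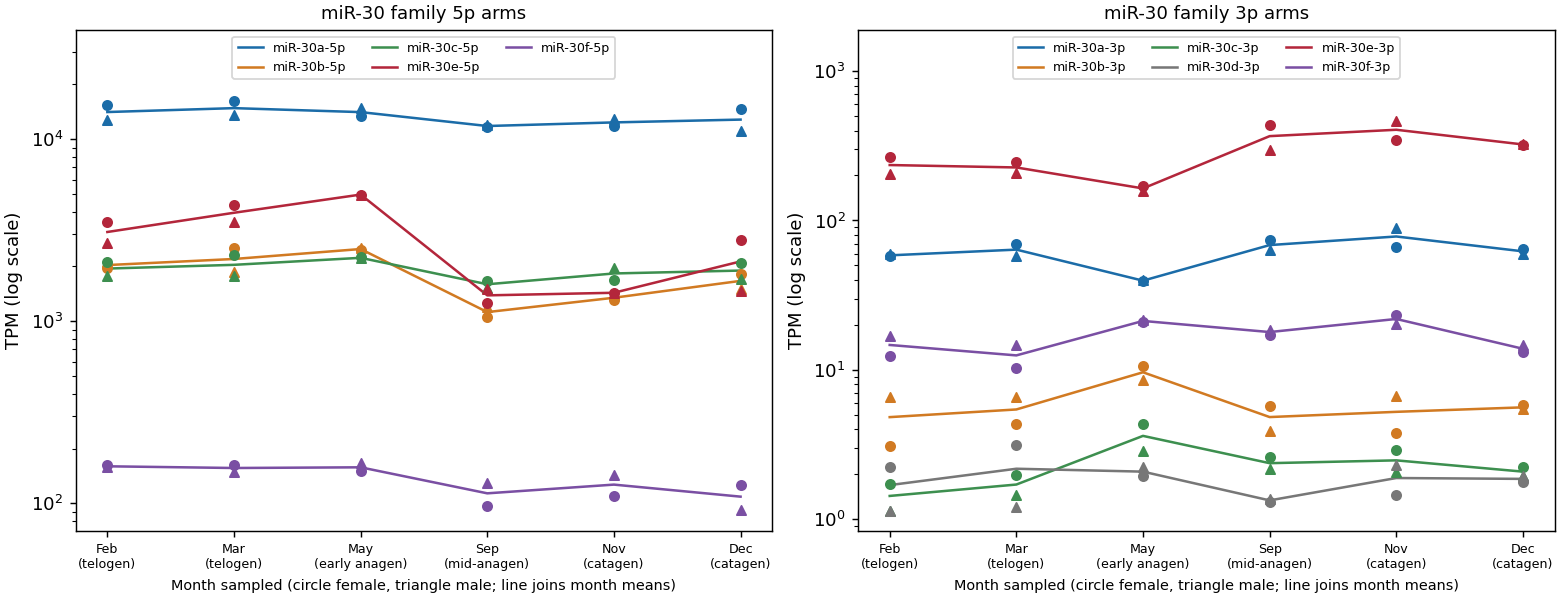
TPM of each family member (log scale) against month, 5p arms on the left and 3p arms on the right. Circles are female libraries, triangles male libraries, and lines join the month means. miR-30a-5p leads in every library, and miR-30e-5p drops from 4965 TPM in May to 1388 in September as miR-30e-3p goes from 164 to 367.

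miR-30a-5p, the dominant member, held a narrow range. It stood at 15478 and 12724 TPM in the female and male library of February, 16124 and 13508 in March, 13359 and 14818 in May, 11686 and 11946 in September, 11836 and 12903 in November, and 14589 and 11044 in December. The highest and lowest libraries were thus March female and December male, and May lay above September without overlap. Once libraries were scaled by TMM, which centres most miRNAs on no change, the order turned and miR-30a-5p was 0.27 higher on the log2 scale in September than in May (SE 0.19, adjusted p = 0.282 by edgeR's quasi-likelihood test). It was 0.25 lower with library totals (log2 difference -0.25, adjusted p = 0.23) and near 0 without the female May library (-0.023). The choice of scale mattered for every comparison with May or with telogen, since the median of the 300 tested miRNAs between May and September was 0.07 with TMM and -0.46 with library totals.

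miR-30e-5p, next by mean over all libraries, stood below miR-30c-5p in 5 of the 12 libraries and ran from 1265 to 4968 TPM. Its female and male libraries gave 3495 and 2691 TPM in February, 4367 and 3523 in March, 4962 and 4968 in May, 1265 and 1510 in September, 1438 and 1430 in November, and 2789 and 1474 in December. In TPM both May libraries stood above all others, and both September libraries below every telogen library. On the TMM scale May overlapped with telogen. The female December library was the only one after May to reach the range of telogen.

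miR-30b-5p followed a like outline over a narrower range. It measured 1953 and 2118 TPM in February, 2522 and 1875 in March, 2470 and 2517 in May, 1054 and 1192 in September, 1304 and 1390 in November, and 1825 and 1510 in December. The September libraries were the lowest of all 12, and in TPM the May libraries did not overlap with those of September or of catagen. With TMM scaling May stayed apart from September but overlapped with catagen. The log2 change of miR-30b-5p from May to catagen was then -0.17 and was not called. miR-30c-5p ranged from 1521 to 2315 TPM and miR-30f-5p from 91.6 to 166 TPM, with their lowest TPM in September and in December, respectively. On the TMM scale September overlapped with telogen and with May for both members.

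The 3p arms of miR-30e and miR-30a took the opposite course. miR-30e-3p measured 265 and 205 TPM in the female and male library of February, 245 and 207 in March, 171 and 156 in May, 439 and 295 in September, 346 and 463 in November, and 320 and 325 in December. The 2 May libraries were the lowest of the series, and every September and catagen library stood above every telogen library. miR-30a-3p measured 57.5 and 59.2 TPM in February, 69.5 and 58.1 in March, 39.2 and 39.9 in May, 73.9 and 62.9 in September, 66.6 and 89.7 in November, and 64.5 and 59.8 in December. Here too both May libraries were the lowest, but in TPM telogen overlapped with September and catagen. On the TMM scale telogen lay below both without overlap. miR-30f-3p ranged from 10.2 to 23.4 TPM and miR-30b-3p from 3.11 to 10.6 TPM.

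**Figure D2:**
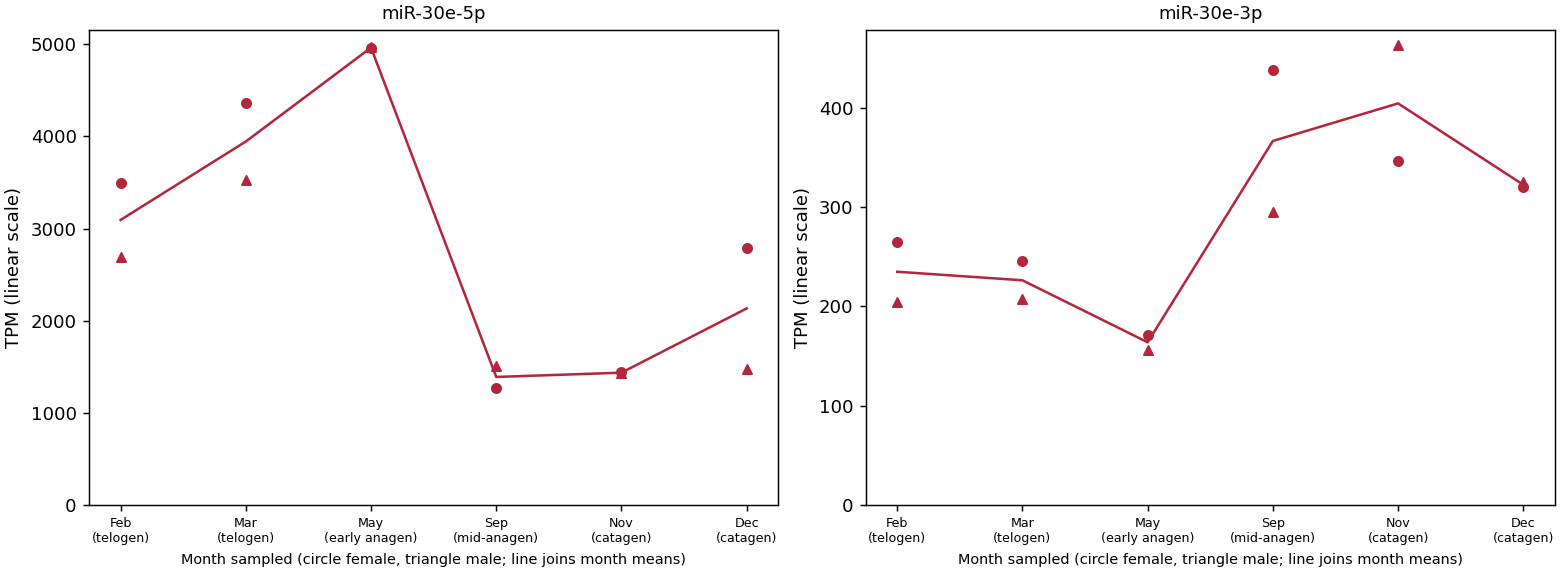
TPM (linear scale, from 0) of miR-30e-5p on the left and miR-30e-3p on the right in the 12 libraries by month. Circles are female libraries, triangles male libraries, and lines join the month means. The May libraries are the highest for the 5p arm (4962 and 4968 TPM) and the lowest for the 3p arm (171 and 156 TPM).

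May (early anagen) was set against September (mid-anagen) to ask which members changed between the start and the middle of growth. Of the 9 members tested, 3 were called at an adjusted p under 0.05 and at least 2-fold, where 18.3% of all 300 miRNAs were called. miR-30e-3p was higher in September by 1.70 on the log2 scale (SE 0.29, adjusted p = 0.00152, edgeR's quasi-likelihood test), and miR-30a-3p was higher by 1.32 (SE 0.25, adjusted p = 0.0024). Both were thus among the 9.67% of miRNAs called higher. How far reads shared between these near-identical arms tie their changes, here and below, was not tested.

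miR-30e-5p went the other way, with a log2 change of -1.32 (SE 0.30, adjusted p = 0.00725), among the 8.67% called lower. Without the female September library this change was -1.24 and no longer passed (adjusted p = 0.0635), which left 2 members called. miR-30b-5p missed the fold limit at -0.63 (SE 0.19, adjusted p = 0.0248), and at -1.15 (adjusted p = 0.00105) it exceeded that limit with library totals. It was not called in the other 17 of 18 alternative fits, and leaving out a library gave -0.86 to -0.59. With library totals miR-30a-3p fell short of the 2-fold limit at 0.79 (adjusted p = 0.017). The median change of the 5 tested 5p arms was 0.05 and that of the 4 tested 3p arms 0.80, beside 0.07 over all 300 miRNAs. With library totals these medians were -0.48, 0.27 and -0.46.

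Of the 81 precursors with both arms tested, miR-30e was the only one with both arms called in opposite directions between May and September. This count was made after the values were seen. It was 1 in each of 6 other fits, with library totals, RLE factors, DESeq2, no filter on low counts, sex as a block and only the groups compared, and it was 0 without the female September library. Without a minimum fold change 6 precursors met it, namely let-7i, miR-106b, miR-125a, miR-125b, miR-30e and miR-99a.

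**Figure D3:**
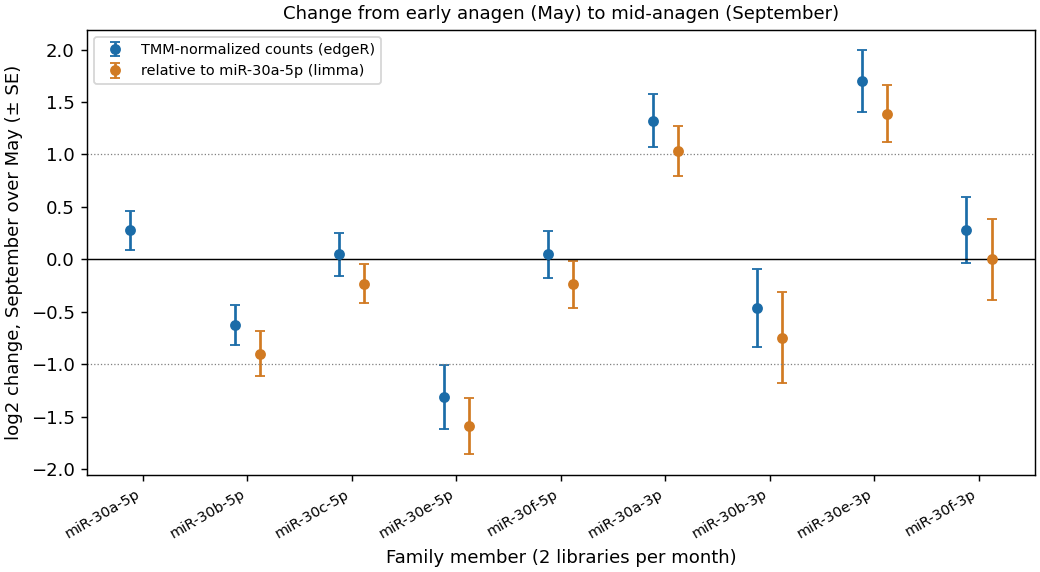
Log2 change from May to September (points, with bars of 1 SE, 2 libraries per month) of the 9 tested members, from TMM-normalized counts and relative to miR-30a-5p in the same library. Dotted lines mark 2-fold. miR-30a-3p and miR-30e-3p lie above the upper line and miR-30e-5p below the lower line on both measures.

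Telogen was compared with May to ask what changed as follicles left rest. No member was called, where 2.33% of all miRNAs were called by edgeR's quasi-likelihood test, and 3 of the 9 had an unadjusted p under 0.05. DESeq2 called 0 members as well. miR-30a-3p was below the fold limit with a log2 change of -0.84 (SE 0.22, adjusted p = 0.0465).

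Between telogen and September 1 of the 9 members was called, where 9.33% of all miRNAs were, with 4.67% lower in September. miR-30e-5p was lower in September by a log2 change of -1.03 (SE 0.27, adjusted p = 0.0171, edgeR's quasi-likelihood test), close to the fold limit. It lost the call with sex as a block (-0.99), without the female March library (-0.89), without the female September library (-0.96, adjusted p = 0.152) and without the male September library (-1.11, adjusted p = 0.0734). miR-30e-3p stood just under the limit at 0.99 (SE 0.24, adjusted p = 0.012). Over the 12 fits that left out a library it ranged from 0.61 to 1.29. It exceeded 2-fold at 1.098 without female February, 1.02 without female March and 1.29 without male September. miR-30b-5p gave -0.60 (SE 0.17, adjusted p = 0.0212).

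Between telogen and catagen 1 of the 9 was called, where 10.7% of all miRNAs were, with 4.33% higher in catagen. miR-30e-3p was higher in catagen by 1.003 (SE 0.20, adjusted p = 0.00298, edgeR's quasi-likelihood test), at the fold limit itself. It fell under that limit with library totals (0.66), RLE factors (0.91), DESeq2 (0.91), no filter (0.96) or only these groups in the fit (0.97). The same held without the male February (0.94), male March (0.87), female May (0.97) or male November library (0.86), with the adjusted p at most 0.0106 in all of these. At an adjusted p under 0.05 with no fold limit, which 35% of all miRNAs met, the members were miR-30e-3p, miR-30f-3p (0.77), miR-30a-3p (0.55) and miR-30e-5p (-0.65).

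Between May and catagen 2 of the 9 were called, where 16.7% of all miRNAs were, with 9% higher in catagen. miR-30e-3p was higher in catagen by 1.71 (SE 0.27, adjusted p = 0.000866, edgeR's quasi-likelihood test) and miR-30a-3p by 1.39 (SE 0.23, adjusted p = 0.00107), which became 0.83 with library totals. miR-30e-5p had a log2 change of -0.93 (SE 0.25, adjusted p = 0.0121), and it exceeded 2-fold in 7 of 18 alternative fits, among them library totals (-1.48) and the fit without the female December library (-1.17). The comparisons that involve May share its 2 libraries, and likewise those with telogen or catagen share theirs.

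From September to catagen no member was called, nor was any of the 300 miRNAs (0%), by edgeR's quasi-likelihood test. 1 member, miR-30b-5p, had an unadjusted p under 0.05, and DESeq2 called 0 members. Between female and male libraries, with month as a term, no member and again 0% of all miRNAs were called. 1 member had an unadjusted p under 0.05, namely miR-30e-5p, with a male over female log2 difference of -0.32 (SE 0.13, adjusted p = 0.407, edgeR's quasi-likelihood test over 300 miRNAs), and DESeq2 called 0. The sex difference in telogen was also set against that in catagen, and no member passed, with the lowest adjusted p at 0.184 for miR-30e-3p.

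The ratio of 5p to 3p counts within a library needs no scaling between libraries. It was tested with limma for 87 precursors whose arms both averaged at least 10 counts, after adding 1 count to each arm, and 5 of the family's precursors (miR-30a, b, c, e and f) were among them. Mean 5p to 3p ratios over the 12 libraries were 934 for miR-30c, 332 for miR-30b, 229 for miR-30a, 12.5 for miR-30e and 8.63 for miR-30f. The high ratios of miR-30b and miR-30c rested on 13 to 44 and 5 to 18 counts of the 3p arm per library.

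For miR-30e the ratio was 13.1 to 17.8 in the 4 telogen libraries, 28.9 and 31.8 in May, 2.88 and 5.12 in September, and 3.09 to 8.71 in catagen. May was the highest and did not overlap with any other phase, and neither September nor catagen overlapped with telogen. The fitted log2 change between May and September was -2.98 (SE 0.40, adjusted p = 3.28e-05, limma), or 7.89-fold lower, the largest of the 87 precursors both by size and by p. Next by size was miR-335 at -2.44.

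Between May and September 2 of the 5 family precursors changed their ratio, where 37.9% of the 87 did and 26.4% did so downwards. Besides miR-30e this was miR-30a (-1.03, SE 0.29, adjusted p = 0.00825, limma), whose count ratio was 341 and 372 in May and 158 and 190 in September. That call was lost without the male May (-0.97, adjusted p = 0.0619) or the female September library (-0.90, adjusted p = 0.066). miR-30e kept its call in all 13 alternatives, at -3.39 to -2.56. The ratios of miR-30b, miR-30c and miR-30f were not called.

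Between May and catagen the same precursors, miR-30a (-0.97, SE 0.26, adjusted p = 0.004, limma) and miR-30e (-2.68, SE 0.34, adjusted p = 1.92e-05), had lower ratios, 2 of 5 beside 41.4% of all precursors changed and 25.3% lowered. miR-30e was again the largest of 87, ahead of let-7i (2.34), and kept the call in all 13 alternatives (-2.97 to -2.47), while miR-30a lost it without the male May library (-0.91, adjusted p = 0.0528). Between telogen and May 1 of 5 changed, where 11.5% of all did and 3.45% did so downwards. It was miR-30c (-0.96, SE 0.27, adjusted p = 0.0262), and the call was lost without the male February (-0.88), female May (-0.70) or male May library (-1.21). miR-30e had a ratio change of 1.003 in the other direction (SE 0.34, adjusted p = 0.055).

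Between telogen and September 4 of 5 had a lower ratio, beside 39.1% of all precursors changed and 31% lowered. The log2 changes were -1.98 for miR-30e (SE 0.34, adjusted p = 0.000251, limma), -0.91 for miR-30f (adjusted p = 0.0231), -0.86 for miR-30c (adjusted p = 0.0192) and -0.86 for miR-30b (adjusted p = 0.0485). Only miR-30e (-2.39 to -1.56) remained called without the female September library. Without the female March library 2 of the 4 calls remained. The miR-30c call was also lost without the male September library (-0.91, adjusted p = 0.0583). The miR-30b call was also lost without the female February, female May, male May, female November or male December library (-0.86 to -0.68, adjusted p 0.0517 to 0.128). miR-195 had the largest change of all precursors here (-2.41), with miR-30e next.

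Between telogen and catagen 3 of 5 had a lower ratio, beside 49.4% of all precursors changed and 31% lowered. These were miR-30e (-1.67, SE 0.28, adjusted p = 0.000199, limma), miR-30f (-0.82, adjusted p = 0.013) and miR-30c (-0.60, adjusted p = 0.0333). Without the female March or the female November library 1 call remained. The miR-30c call was also lost without the female February (-0.61), male February (-0.53) or male December library (-0.64). miR-30e kept its call in all 13 alternatives (-1.96 to -1.47). From September to catagen no ratio of the family or of the 87 precursors was called (0%, limma).

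**Figure D4:**
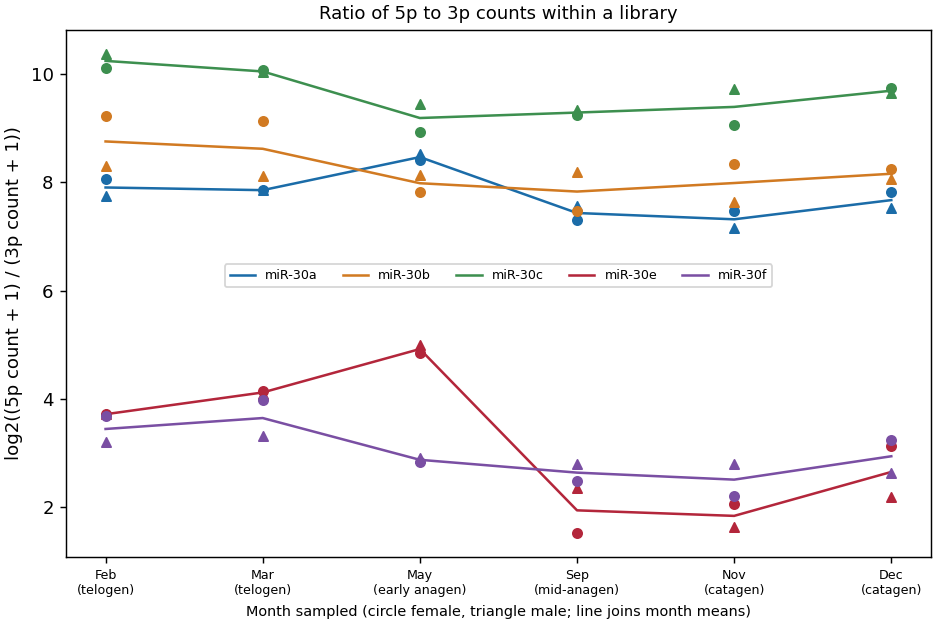
Log2 ratio of 5p to 3p counts, with 1 count added to each arm, within each library for the 5 tested miR-30 precursors, by month. Circles are female libraries, triangles male libraries, and lines join the month means. The line of miR-30e falls from 4.92 in May to 1.94 in September, while miR-30c stays above 8.9 in all libraries.

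Summed over the family without miR-30d-5p, the 5p arms held 1.58% to 2.55% of the counts of a library. The 5p sum was 23200 and 19475 TPM in the female and male library of February, 25491 and 20824 in March, 23181 and 24690 in May, 15775 and 16300 in September, 16380 and 17835 in November, and 21422 and 15824 in December. September lay below telogen and May without overlap. On the TMM scale May gave 18565 and 19190 CPM and September 17870 and 18605, and these overlapped. Telogen, at 16903 to 24502 CPM, overlapped with September as well.

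The 3p sum was 342 and 290 TPM in February, 335 and 289 in March, 248 and 232 in May, 540 and 384 in September, 444 and 584 in November, and 408 and 409 in December. May was lowest and telogen lay below September and catagen, without overlap. This order of May below September also held on the TMM scale, at 199 and 180 against 636 and 421 CPM.

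The ratio of the summed 5p to the summed 3p arms, which is free of scale, was 67.2 to 76.2 in telogen, 93.4 and 107 in May, 29.2 and 42.5 in September, and 30.5 to 52.5 in catagen. Only September and catagen overlapped. The 3p arms thus made up 0.929% to 1.06% of the family's TPM in May and 2.30% to 3.31% in September. miR-30e-3p supplied 67.5% to 81.3% of the 3p sum in every library.

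**Figure D5:**
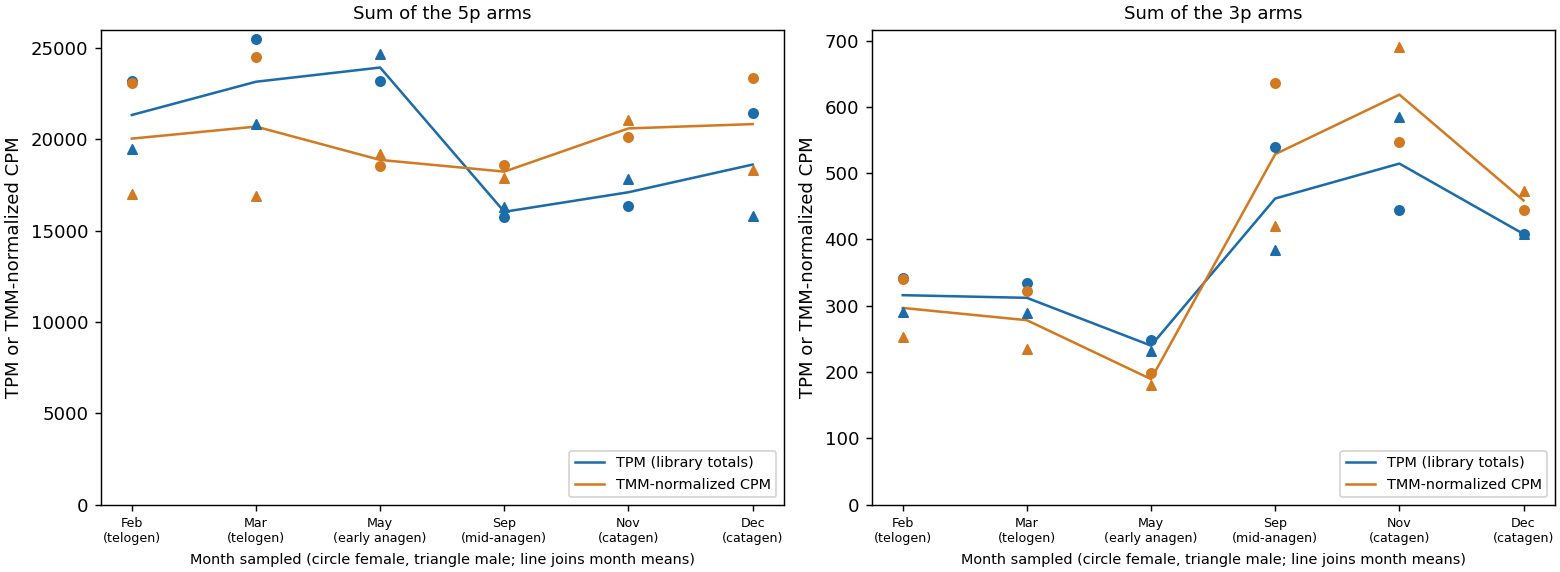
Summed 5p arms (left) and summed 3p arms (right) of the family in each library by month, as TPM (blue) and as TMM-normalized CPM (orange). Circles are female libraries, triangles male libraries, and lines join the month means. The May and September 5p sums are apart in TPM (23181 and 24690 against 15775 and 16300) and overlap after TMM, while the 3p sums are apart on both scales.

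The makeup of the 5p sum shifted with the phase. miR-30e-5p contributed 13.8% to 17.1% of it in telogen, 20.1% and 21.4% in May, 8.02% and 9.27% in September, and 8.02% to 13.0% in catagen. miR-30a-5p contributed 57.6% and 60.02% in May and 73.3% and 74.1% in September. The ratio of miR-30a-5p to miR-30e-5p was accordingly 2.69 and 2.98 in May and 7.91 and 9.24 in September.

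Whether members moved apart from each other was tested with limma on the ratio of each miRNA to miR-30a-5p in the same library. Between May and September 4 of 8 members changed relative to miR-30a-5p, where 25.1% of 299 miRNAs did. They were miR-30e-5p (-1.59, SE 0.27, adjusted p = 0.00495), miR-30e-3p (1.39, SE 0.27, adjusted p = 0.00573), miR-30a-3p (1.03, SE 0.24, adjusted p = 0.0126) and miR-30b-5p (-0.90, SE 0.22, adjusted p = 0.014). By construction the miR-30a-3p value is the miR-30a arm ratio tested above with its sign reversed, and so not a further result. The counts that remained were 2 without the female May library, 1 without the male May library and 0 without the female September library, where the 4 values were -1.48, 1.08, 0.90 and -0.83. Without the male September library miR-30b-5p alone was lost (-0.97, adjusted p = 0.05003). The same 4 members changed between May and catagen, where 32.1% of miRNAs did, with -1.37 for miR-30e-5p, 1.30 for miR-30e-3p, 0.97 for miR-30a-3p and -0.57 for miR-30b-5p, and 2 calls remained without the male May library. The miR-30b-5p call was lost in 6 of the 12 fits that left out a library, namely either library of May, September or November (-0.63 to -0.51, adjusted p 0.0516 to 0.206).

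miR-30e-5p (-1.04) and miR-30e-3p (0.93) were the 2 of 8 that changed between telogen and September relative to miR-30a-5p, beside 9.7% of all miRNAs (limma), and neither did without the female March or without either September library. The same pair changed between telogen and catagen (-0.82 and 0.85), beside 19.1% of all, and neither did without the female or the male November library. No member changed between telogen and May (0.334% of all) or between September and catagen (0%). miR-30c-5p, miR-30f-5p, miR-30b-3p and miR-30f-3p were not called relative to miR-30a-5p in any of the 6 comparisons.

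Several members are neighbours in the genome. In the RefSeq annotation of ARS1.2, MIR30E and MIR30C lie inside NFYC, which encodes a subunit of the NF-Y transcription factor, MIR30B and MIR30D lie together inside LOC108637533, and MIR30A and MIR30F are within 100 kb of each other. The neighbours miR-30e-5p and miR-30c-5p had a Pearson r of -0.0489 over the 12 libraries (log2 TMM-normalized CPM), and miR-30a-5p and miR-30f-5p one of 0.577. As descriptions over the same 12 libraries, which share depth and scaling, the closest pairs in the family were miR-30a-3p with miR-30e-3p (r = 0.958), miR-30a-5p with miR-30c-5p (r = 0.882) and miR-30b-5p with miR-30e-5p (r = 0.809). The arms miR-30a-3p and miR-30e-3p are near-identical and may share reads, and the former's count was 0.168 to 0.289 of the latter's in a library. The arms of miR-30e gave r = -0.773 and those of miR-30a r = 0.739.

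Outside the family, the profiles most like miR-30a-5p by Pearson r over the 12 libraries were miR-126-3p (0.837), an endothelial miRNA, miR-342-3p (0.824) and miR-1 (0.812), a muscle miRNA. Those most like miR-30e-5p were miR-497-5p (0.951), miR-106b-5p (0.940) and miR-126-5p (0.925), so that the arms of miR-126 fell on different members. For miR-30a-3p they were miR-28-3p (0.965), miR-182 (0.940) and the predicted miRNA novel_131 (0.925), and for miR-30e-3p miR-151-3p (0.974), miR-3432-5p (0.966) and miR-192-5p (0.960). For scale, miR-126-3p averaged 8712 TPM in May and 9363 in September, and miR-126-5p 720 and 314.

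Other miRNAs known to restrain epithelial-mesenchymal transition or matrix genes were the miR-200 family, miR-29 and miR-133, of which 9 were tested. Between May and September 2 of the 9 were called, both higher in September, beside the 18.3% of all miRNAs and the 9.67% called higher. They were miR-200a, which represses Zeb1 and Zeb2 and which the study had itself examined in these follicles (log2 change 1.43, SE 0.23, adjusted p = 0.00131, edgeR's quasi-likelihood test), and miR-29b-3p, which represses collagen genes (1.30, SE 0.42, adjusted p = 0.0303). The lowest change was -0.52 for miR-133a-3p, which was not called, and the median over the 9 was -0.14.

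In the other comparisons of these 9, miR-29b-3p was lower in May than in telogen (-1.91, SE 0.39, adjusted p = 0.022, edgeR's quasi-likelihood test) and higher in catagen than in May (1.62, SE 0.38, adjusted p = 0.0062). miR-141, of the miR-200 family, was lower in September than in telogen (-1.04, SE 0.28, adjusted p = 0.0193). Each of these comparisons had 1 of the 9 called, beside 2.33%, 16.7% and 9.33% of all miRNAs, in that order. None of the 9 was called between telogen and catagen or between September and catagen.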

How the data were processed

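Small RNA libraries of SHFs were analysed from 12 samples. The authors used the CHIR_2.0 genome, miREvo with mirDeep2 to find miRNAs, and Bowtie for quantification (0.12.9 in the submitters' processing notes). They deposited per library the count of each miRNA, not normalized, and its TPM. Deposited TPM values differed from the scaled count by at most 0.00499. Reads shared by near-identical members are already assigned in these values.

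Counts were tested in R 4.3.3 with edgeR 4.0.16 (TMM, glmQLFit, glmQLFTest), where 1 fit held 12 libraries and 4 phase groups. The filter (over 5 CPM in at least 2 libraries), the adjusted p under 0.05 (Benjamini-Hochberg over 300 miRNAs) and the 2-fold limit follow the study's methods. Standard errors are the log2 change divided by the square root of F. Ratios of arms and ratios to miR-30a-5p were fitted with limma 3.58.1 on log2 counts plus 1. Sexes were compared with month as a term. Alternatives were library totals, RLE factors, DESeq2 1.42.0, no filter, no fold limit, sex as a block, only the groups compared, 5 counts added to each arm, another reference member, and each library left out. The scripts were tested on simulated data. The miRNAs named are the family, the 3 most alike outside it for 4 members, and those of the cell type and epithelial-mesenchymal lists. Precursors and miRNAs named beyond this were chosen after their values were seen. The members and lists were chosen with earlier results of these data known. RefSeq genes (ARS1.2) gave neighbours only.

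Correlations used log2 TMM-normalized CPM (prior count 1). Counting error is small at these depths except for the 3p arms of miR-30b, miR-30c, miR-30d and miR-30f, the last with 52 to 95 counts per library. Precision is further limited by having 2 libraries each for May and September.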

Additional observations from a re-analysis of the deposited data

Results flagged for a closer look

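Among 36 groups of 4 libraries checked (the members and arm ratios in telogen and in catagen), 3 held a library whose gap to its nearest neighbour was large for the range of the group, where chance gives about 1 in 20. miR-30e-5p stood at 2789 TPM in the female December library, against 1430 to 1474 in the other catagen libraries. miR-30a-3p stood at 69.5 TPM in the female March library, against 57.5 to 59.2 in the other telogen libraries. The log2 5p to 3p ratio of miR-30c was 9.05 in the female November library, against 9.64 to 9.74 in the other catagen libraries.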

How the results depend on the processing

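Among the settings that leave all libraries in, some moved a count of calls by over 1.5 times. With no minimum fold change the members called became 1 between telogen and May, 3 between telogen and September and 4 between telogen and catagen. Sex as a block left 0 between telogen and September. Library totals, RLE factors, DESeq2, no filter and only the groups compared each left 0 between telogen and catagen. Adding 5 counts to each arm gave 2 changed ratios between telogen and May. Smaller shifts, by 1 call, were 4 members between May and September with no minimum fold change, 3 between May and catagen with no filter, only the groups compared or no minimum fold change, and 4 ratios between telogen and catagen with 5 counts added. The 5p sums in TMM-normalized CPM were 18878 in May, 18237 in September and 20721 in catagen, against 23936, 16038 and 17865 TPM. miR-30a-5p between May and September reversed to -0.25 with library totals and to -0.023 without the female May library, in a range from -0.023 to 0.31 over the libraries left out. The cause of these changes was not tested.

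Leaving out each library in turn, the members called ranged from 2 to 3 between May and September, 0 to 2 between telogen and September, 0 to 1 between telogen and catagen, and 2 to 3 between May and catagen, and stayed at 0 in the other 3 comparisons. Changed arm ratios ranged from 1 to 2, 0 to 2, 1 to 4, 1 to 4, 1 to 2 and 0 to 0 between May and September, telogen and May, telogen and September, telogen and catagen, May and catagen, and September and catagen. Changes relative to miR-30a-5p ranged in the same order from 0 to 4, 0 to 0, 0 to 2, 0 to 2, 2 to 4 and 0 to 0. The planned reference miR-30d-5p was not run, and miR-30c-5p, chosen after seeing the data, took its place, with which miR-30b-5p was not called and 3 members remained in both comparisons (-0.67 between May and September, -0.47 between May and catagen). The labels carry no replicate numbers, and sex was the only block fitted, with the effect given above. A lone May or September library is assumed to vary like the other groups.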
